A study of Macaca mulatta with 449 samples.

Results

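Interferon-stimulated genes were followed by name through the gene count table of the rhesus macaque brain, 9 genes in all (*IFI6*, *ISG15*, *MX1*, *MX2*, *IFIT1*, *IFIT3*, *IFI44*, *IFI27* and *OAS2*). Of these, 8 were matched to a row among the 30807 genes of the table, each by 1 Ensembl gene identifier, and *ISG15* was not analysed here. The genes were read in ribosomal RNA-depleted libraries, 1 library for each of 51 brain sub-regions in each of 8 healthy, untreated animals of *Macaca mulatta*. The animals, numbered as in the labels, were 4 males (animals 2 and 3, both 10 years old, animal 7, 4 years, and animal 8, 3.8 years) and 4 females (animal 4, 3.2 years, animal 10, 5 years, animal 11, 9.8 years, and animal 6, 10 years). Animals not older than 5 years were called young and the others mid-aged, which gave 2 males and 2 females in each age class.

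Interferons are secreted proteins that cells release when they sense foreign or misplaced nucleic acid. Type I and type III interferons bind receptors that signal through JAK kinases to transcription factors that switch on a large set of target genes whose products block the replication of viruses. In the healthy brain such genes are transcribed at a low basal level, and microglia and endothelial cells are among the cells known to respond strongly to interferon.

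Each library was 1 piece of dissected tissue, so fewer cells of a type and less RNA per cell cannot be told apart. Total counts ran from 7784678 to 31083490 per library with a median of 10698602. Every one of the 8 genes had at least 1 read in every library, but the precision differed between them. The lowest count in a single library was 1 for *MX2*, 6 for *OAS2*, 11 for *IFI27* and 12 for *IFI44*, against 46 for *MX1*, 71 for *IFIT3*, 122 for *IFIT1* and 299 for *IFI6*. Levels are given as CPM, read counts scaled to a common library size after TMM normalization, and are compared between samples for the same gene only. The 51 sub-regions were joined into 16 region groups, the cortex with 31 sub-regions, the hippocampus (HIP) with 3, the striatum (STR) with 3, the cerebellum (CB) with 2, and 12 single sub-regions. These were the olfactory bulb (OB), medulla oblongata (MO), pons (PON), substantia nigra (SN), ventral tegmental area (VTA), globus pallidus (GP), corpus callosum (CC), thalamus (THA), hypothalamus (HTHA), pituitary (PIT), amygdala (AMY) and the entorhinal and perirhinal cortex (PA). Counts were summed within an animal and a region group, which gave 8 sums per region group with the animal as the replicate.

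The dissections carried the markers of their labels where these could be checked. Summed anterior pituitary markers reached 31771 to 351206 CPM in PIT, and summed oligodendrocyte markers 93404 to 124485 CPM in CC against 2613 to 3429 CPM in the cortex. The MO library of animal 6 stood apart, with summed neuron markers at 664 CPM against 7054 to 12405 CPM in the other 7 animals. No pair of libraries held identical counts.

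All 8 genes differed among the region groups (edgeR's quasi-likelihood F test with the animal as a block, Benjamini-Hochberg adjusted p from 7.1e-47 for *IFI44* to 4.5e-24 for *OAS2*). Nearly every gene of the table did so too, 99.7% of the 16829 genes tested, so the test alone says little about these genes. The shape of the pattern was more particular to each gene. *IFI44* and *IFI6* were higher in OB than in each of the other 15 groups by more than 2-fold, a call that 11.5% of all genes had for some group. *IFI44* exceeded its next group, GP, by 1.39 in fitted log2 level, and *IFI6* exceeded its next group, PIT, by 1.07. The *IFI6* difference fell under the fold limit without animal 4 (0.99) or animal 10 (0.95), while *IFI27* passed it over VTA without animal 3 (1.20) or animal 8 (1.03).

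**Figure D1:**
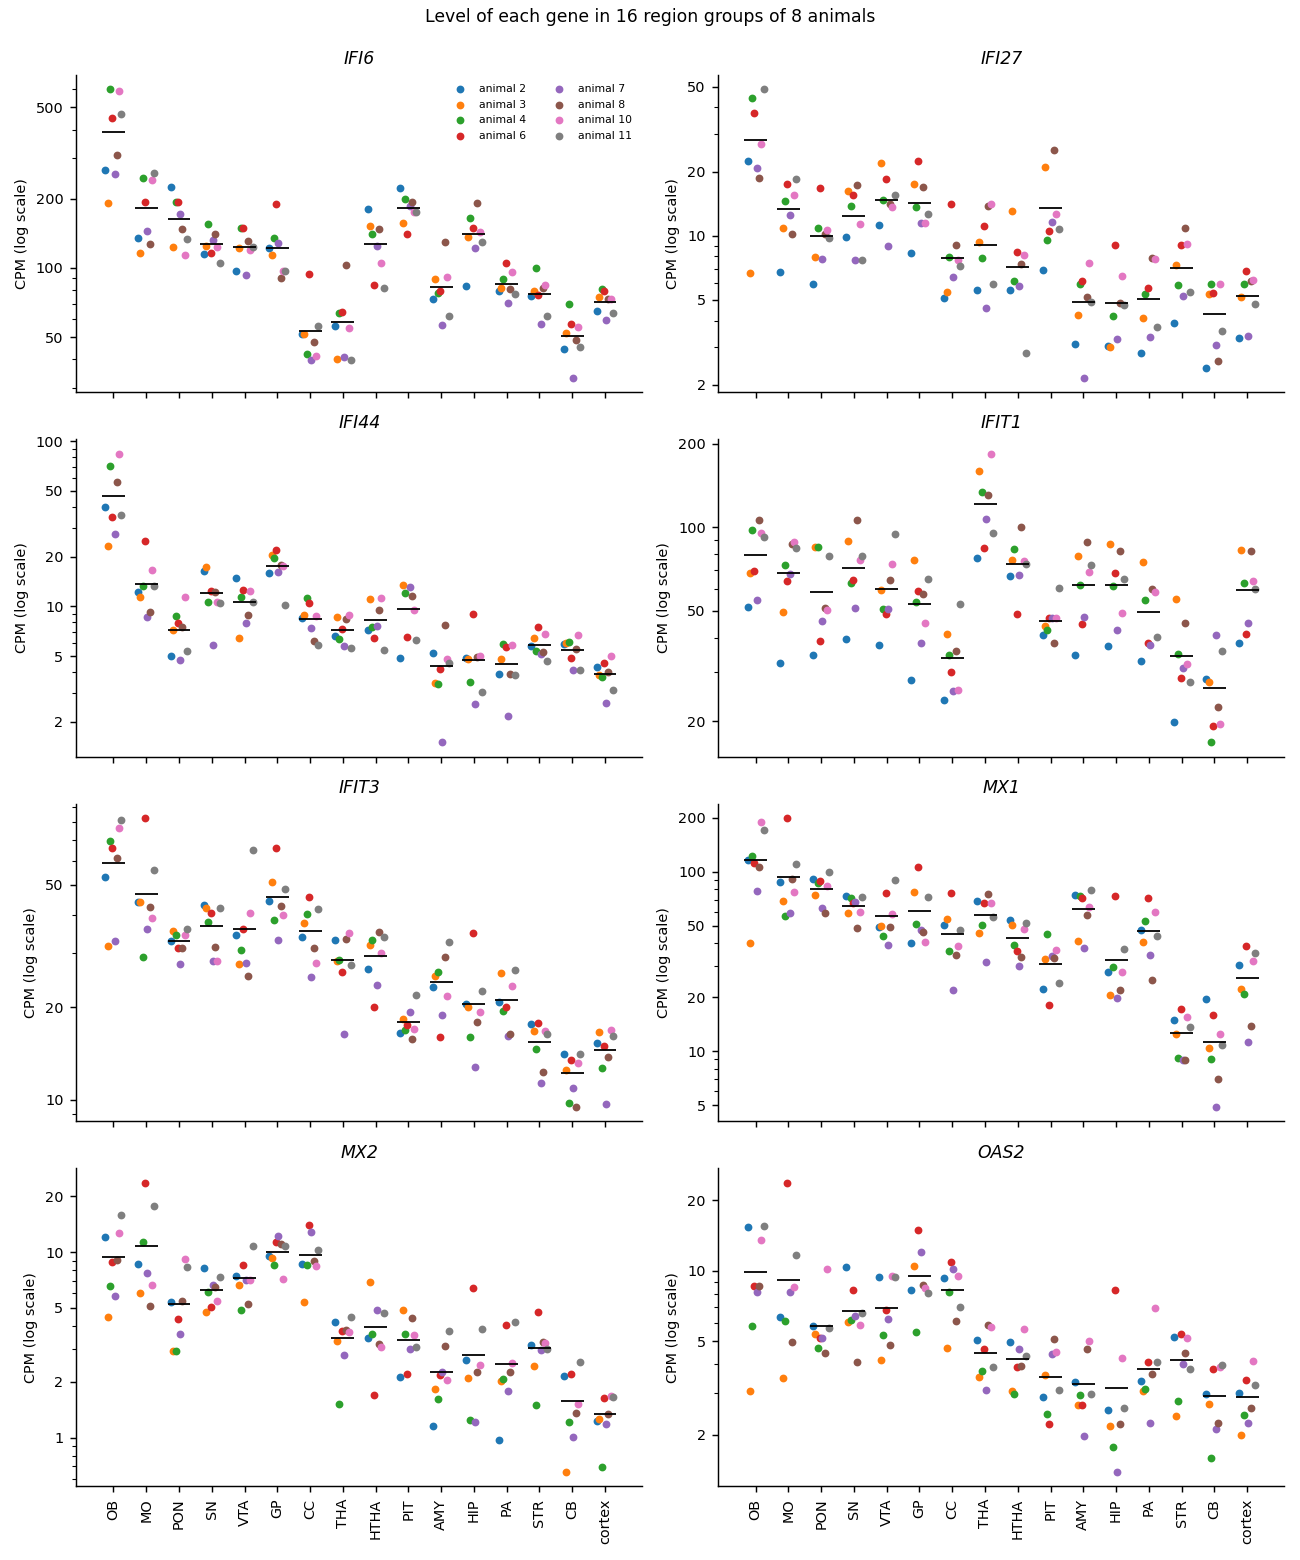
CPM of each of the 8 genes (log axis) in 16 region groups, 1 point for each of 8 animals and a bar at the mean. OB holds the highest mean for 6 genes, MO for *MX2* and THA for *IFIT1*, and animal 6 is the highest point for *MX1* in MO at 199 CPM and in HIP at 73.2 CPM.

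The cortex, which holds most of the sub-regions, was the common comparator, so the 15 comparisons below share the cortical sums. Of the 120 pairs of a gene and a region group, 53 were higher than the cortex and 2 lower (adjusted p below 0.05 over all genes and more than 2-fold). Over all genes, 12.3% of such pairs were higher and 12.2% lower. The genes were higher far more often than lower, and in all 55 called pairs each of the 8 animals moved in the direction of the call. In 42 of the 55 the animals' levels in the group did not overlap those in the cortex. The 55 pairs had been picked by the call, so both counts follow in part from it, and neither was made over all genes.

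In OB, 7 of 8 genes were higher than in the cortex, where 12.5% of all genes were. The median log2 fold change (log2FC) of the 8 genes was 2.35, against 0.02 over all genes. *IFI44*, an interferon-induced cytoplasmic protein, showed the greatest difference in OB. Its OB level ran from 23.1 CPM over a median of 37.9 to 84.1 CPM, whereas the cortical sums ran from 2.59 over 3.93 to 5.04 CPM. The ranges lay far apart, and the log2FC was 3.56 (SE 0.19, adjusted p 8.3e-34 by edgeR's quasi-likelihood test).

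The GTPase genes *MX1* and *MX2* encode dynamin-like proteins that trap incoming virus, MX1 in the cytoplasm and MX2 at the nuclear pore. *MX1* stood at 40.1 to 189 CPM in OB with a median of 114, and at 11.2 to 38.5 CPM in the cortex with a median of 26.1 (log2FC 2.25, SE 0.19). *MX2* stood at 4.49 to 15.8 CPM in OB with a median of 8.93, and at 0.69 to 1.67 CPM in the cortex with a median of 1.31 (log2FC 2.81, SE 0.23). For both genes even the lowest bulb was above the highest cortex, although for *MX1* the gap was small, since animal 3 had an OB level of only 40.1 CPM.

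*IFI6* and *IFI27* belong to one family of small membrane proteins, and IFI6 is known to restrain flaviviruses at the endoplasmic reticulum. *IFI6* ranged from 192 to 601 CPM in OB (median 379) and from 59.6 to 81.2 CPM in the cortex (median 73.1), with a log2FC of 2.44 (SE 0.17). *IFI27* ranged from 6.68 to 48.8 CPM in OB (median 24.6) and from 3.33 to 6.83 CPM in the cortex (median 5.54), with a log2FC of 2.49 (SE 0.20). The *IFI6* ranges were separate, but for *IFI27* the OB of animal 3, at 6.68 CPM, fell inside the cortical range.

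*IFIT3*, whose product binds and stabilises IFIT1, was at 31.7 to 81.2 CPM in OB (median 63.4) and 9.66 to 16.8 CPM in the cortex (median 15.1). *OAS2*, the enzyme that makes the 2'-5' oligoadenylates that activate RNase L, was at 3.07 to 15.6 CPM in OB (median 8.61) and 2.00 to 4.13 CPM in the cortex (median 2.80). The log2FC was 2.01 (SE 0.13) for *IFIT3*, with no overlap, and 1.75 (SE 0.20) for *OAS2*, where animal 3 again lay inside the cortical range. *IFIT1*, which binds viral RNA that lacks the host's cap methylation, was not called in OB (log2FC 0.43, SE 0.15). The OB library of animal 3 was the lowest of the 8 for *IFI6*, *MX1*, *MX2*, *IFIT3*, *IFI44*, *IFI27* and *OAS2*. It stood apart over all genes as well. Of 17121 genes, 312 were more than 2-fold above the other animals' median there and 1315 were below it by as much. Without that animal the same 7 genes were called, with log2FC from 1.84 to 3.65.

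Markers of other cells were read in the same sums. Of 5 microglia markers tested, 3 were higher in OB (*TYROBP*, *C1QC* and *ITGAM*), and the summed list was at 93.4 to 184 CPM against 67.1 to 102 CPM in the cortex. Of 4 leukocyte markers 1 was higher (*PTPRC*), with summed leukocyte markers at 8.88 to 21.2 CPM against 5.34 to 8.82 CPM. Of 8 endothelial markers 0 were higher by that rule with edgeR, and 3 were higher at an unadjusted p under 0.05, with a sum of 98.5 to 180 CPM against 103 to 164 CPM. Their part in the levels of the interferon-stimulated genes was not tested.

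**Figure D2:**
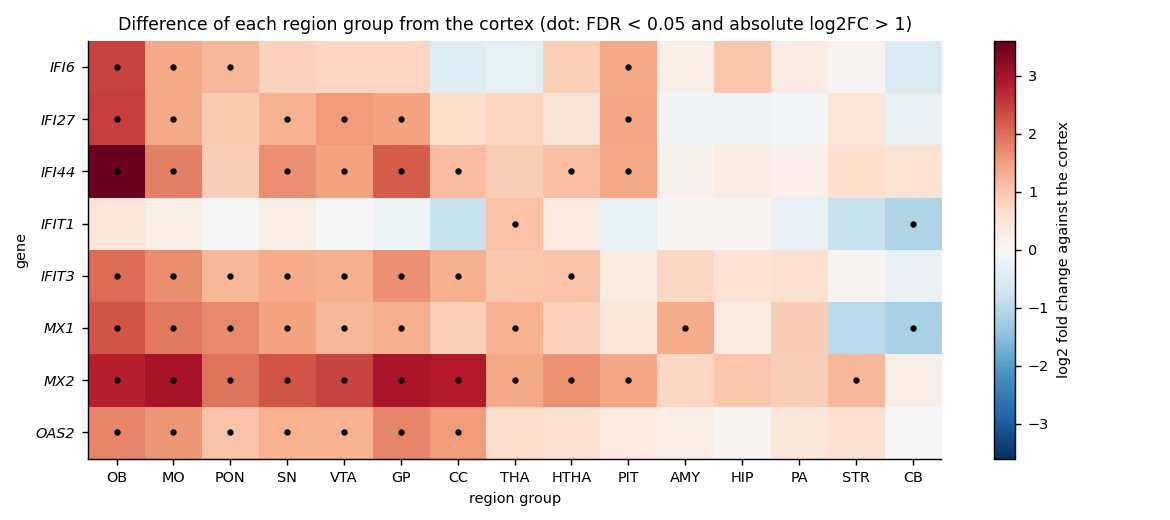
Difference of each of 15 region groups from the cortex for the 8 genes, as log2 fold change (colour, red for higher), with a dot where the adjusted p was below 0.05 and the change more than 2-fold. OB and MO each carry dots for 7 genes, and the *IFIT1* row carries 1 dot for a higher level (THA) and 1 for a lower level (CB).

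In the hindbrain and ventral midbrain most of the genes were also above the cortex. In MO 7 of 8 were higher (15.8% of all genes), with a median log2FC of 1.64, and of 1.40 without animal 6. *MX2* had its highest mean there, 5.12 to 23.6 CPM with a median of 8.18 (log2FC 2.98, SE 0.23). Animal 6 was the highest of the 8 in MO for *MX1*, *MX2*, *IFIT3*, *IFI44* and *OAS2*. Without animal 6 the same 7 genes were called, and log2FC went from 1.89 to 1.75 for *MX1*, from 2.98 to 2.75 for *MX2* and from 1.60 to 1.28 for *OAS2*.

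PON had 5 of 8 genes higher (11.6% of all genes), SN 6 (14.4%) and VTA 6 (14.8%). *MX1* in PON spanned 58.8 to 100 CPM, all animals above the highest cortex, with a log2FC of 1.73 (SE 0.19). *IFI27* in VTA spanned 8.96 to 21.8 CPM (log2FC 1.52, SE 0.20), also without overlap. *IFIT1* was not called in any of these 3 groups, with log2FC between -0.02 and 0.25. The call of *OAS2* in PON (log2FC 1.02, SE 0.20) was near the fold limit and was lost without animal 3 (0.96) or animal 10 (0.98) and under the study's filter on low counts (0.94).

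Markers of other cells were high in these groups too. Of 5 microglia markers, 5 were higher than in the cortex in SN, 4 in VTA and 2 in PON, with sums of 196 to 376, 154 to 263 and 94.4 to 204 CPM. All 7 oligodendrocyte markers were higher in each of the 3 groups. Of 8 endothelial markers, 5 were higher in VTA, 2 in SN and 0 in PON by edgeR, with sums of 170 to 284, 144 to 286 and 125 to 222 CPM. In THA and HTHA, 4 of 5 microglia and 7 of 7 oligodendrocyte markers were higher and 0 of 8 endothelial ones, with summed microglia markers at 137 to 225 and 143 to 196 CPM. Their part in the levels of the interferon-stimulated genes was not tested.

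In GP and CC, both rich in myelin, *MX2* led the other genes. GP had 6 of 8 genes higher (17% of all genes) and CC 4 (20.2%), with median log2FC of 1.55 and 0.98. It was at 7.14 to 12.1 CPM in GP (log2FC 2.93, SE 0.23) and 5.38 to 14 CPM in CC (log2FC 2.86, SE 0.23). *IFI44* in GP reached 10.3 to 21.9 CPM (log2FC 2.17, SE 0.18). In CC, *IFI6* at 39.7 to 94.1 CPM and *IFIT1* at 23.8 to 52.9 CPM were not called, with negative log2FC of -0.43 (SE 0.16) and -0.81 (SE 0.15).

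All 5 microglia markers and all 7 oligodendrocyte markers were higher than in the cortex in MO, GP and CC. Summed microglia markers were 160 to 687 CPM in MO (687 in animal 6 and at most 418 in the others), 265 to 521 CPM in GP and 168 to 478 CPM in CC. Of the 4 leukocyte markers 3 were higher in MO and GP and 2 in CC, where 1 was lower. Their part in the levels of the interferon-stimulated genes was not tested.

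*IFIT1* was the exception to the common pattern. It was highest in THA, from 77.5 to 184 CPM with a median of 119, while the cortex ran from 38.4 to 82.4 CPM with a median of 61.4. In each animal THA was above the cortex, yet the ranges overlapped because the animals differed, and the log2FC was 1.05 (SE 0.15, adjusted p 2.9e-09 by edgeR). *MX1* (log2FC 1.25) and *MX2* (1.37) were the other genes higher in THA, 3 of 8 against 9.81% of all genes. *IFIT3* in THA, at 0.98, was called under 4 of 11 alternatives, DESeq2 size factors and leaving out animal 3, 7 or 11, at 1.02 each. The *IFIT1* call in THA was close to the fold limit, and it was lost without animal 10 (log2FC 0.97) and under the study's filter on low counts (0.98).

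PIT had 4 of 8 genes higher than the cortex (21.4% of all genes), which were *MX2* (log2FC 1.40), *IFI27* (1.39), *IFI6* (1.37) and *IFI44* (1.36). Microglia and oligodendrocyte markers were not high there. Summed microglia markers were 22.7 to 76.8 CPM and summed oligodendrocyte markers 18.2 to 56.2 CPM, the latter with 7 of 7 markers lower than in the cortex. *MX1*, *IFIT3* and *OAS2* were not called in PIT, with log2FC of 0.42, 0.32 and 0.36.

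HTHA had 3 of 8 genes higher (11.0% of all genes), *MX2* at log2FC 1.63, *IFI44* at 1.09 and *IFIT3* at 1.04. The *IFIT3* call was lost without animal 4 (0.99) or animal 8 (0.95). AMY had 1 (5.03% of all genes), *MX1*, at 37.9 to 78.9 CPM and log2FC 1.34 (SE 0.19). STR had 1 (8.73%), *MX2*, at 1.5 to 4.76 CPM and log2FC 1.18 (SE 0.22). *MX1* went the other way in STR, at 8.89 to 17.2 CPM with a log2FC of -0.97 (SE 0.19), which missed the fold limit although all 8 animals were below their own cortex. It was called lower in STR under 4 of 11 alternatives, the study's filter on low counts (-1.01), no animal block (-1.02), and without animal 7 (-1.04) or animal 8 (-1.02).

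No gene was called higher in HIP (6.05% of all genes), PA (5.51%) or CB (10.8%) by edgeR. At an unadjusted p under 0.05 there were 3 higher in HIP, 3 in PA and 1 in CB. *MX2* in HIP, at 1.21 to 6.43 CPM, came closest to the fold limit with a log2FC of 0.99 (SE 0.22), and *IFI6* in HIP, at 83.2 to 191 CPM, had 0.97 (SE 0.16). *MX2* in HIP was called under 7 of 11 alternatives, at 1.00 to 1.09, which were DESeq2 size factors, no animal block, and leaving out animal 3, 4, 7, 8 or 10. *IFI6* in HIP was called without animal 2 (1.02), and *MX1* in PA, at a log2FC of 0.93 with all animals, without animal 11 (1.03). CB was the one group with lower calls when all animals were used, 2 of 8 genes against 14.9% of all genes. *MX1* there was at 4.88 to 19.5 CPM (log2FC -1.16, SE 0.19) and *IFIT1* at 16.8 to 41 CPM (log2FC -1.10, SE 0.15), both below the cortex in all 8 animals. Of the 5 microglia markers 0 were higher in CB by edgeR, also at an unadjusted p under 0.05, and their sum was 43 to 91.5 CPM.

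The order of the 16 groups was read for each gene from the animals' levels, with an exact two-sided sign-flip permutation test of each pair of neighbours in that order over the 8 animals. Of 120 neighbouring pairs, 13 had an unadjusted p under 0.05, so most steps in the order were within the spread of the animals. The order came from the same levels that were tested, so the data had already chosen the neighbours and largely the direction of each step. Such steps were not counted over all genes, so the p-values here describe the order only. The smallest p that 8 animals allow, 0.0078, was met by 6 steps. These were OB above MO and GP above PA for *IFI6*, the cortex above STR for *MX1*, THA above OB for *IFIT1*, GP above SN for *IFIT3*, and OB above GP for *IFI44*.

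At the top of the order the remaining genes had no clear leader. OB did not differ from MO beyond the animals' spread for *MX1* (mean log2 difference 0.31 ± 0.77, SD, n = 8, exact permutation p = 0.289) or for *IFIT3* (0.32 ± 0.60, n = 8, exact permutation p = 0.180). OB and VTA for *IFI27* gave 0.74 ± 1.01 (n = 8, exact permutation p = 0.0938). For *MX2* the leading group MO and GP differed by -0.04 ± 0.68 (n = 8, exact permutation p = 0.867), and for *OAS2* OB and GP by -0.05 ± 0.83 (n = 8, exact permutation p = 0.930). At the bottom, CB was the lowest group for *IFI6*, *MX1*, *IFIT1*, *IFIT3* and *IFI27*, and the cortex for *MX2*, *IFI44* and *OAS2*.

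Within the cortex, 7 of the 8 genes differed among the 31 sub-regions (edgeR, adjusted p below 0.05), as 75.0% of all genes did. *MX1* varied most clearly (F 27.1, adjusted p 6.1e-56). It was highest in the anterior cingulate gyrus (ACG), at 22.2 to 55.8 CPM with a median of 42.8, followed by the posterior superior frontal gyrus (SFG), at 18.7 to 46.4 CPM with a median of 38.3. It was lowest in the posterior superior occipital gyrus (pSOG), at 7.08 to 22.7 CPM with a median of 16, and in the anterior one (aSOG), at 5.31 to 23.8 CPM with a median of 16. The cuneus and lingual gyri came next from the bottom, with means of 15.9 and 16.3 CPM, so that the low end of *MX1* lay in occipital and neighbouring visual cortex.

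*IFI6* differed less (F 5.70, adjusted p 1.9e-14) and in another order. Its highest mean was in the superior parietal lobule (SPL), 87.4 ± 26.9 CPM (SD, n = 8), where animal 6 had 150 CPM and the others 62.9 to 89.4 CPM, and its lowest in the temporal polar gyrus, 51.6 ± 8.46 CPM (SD, n = 8). *MX2*, *IFIT3*, *IFI44*, *IFI27* and *OAS2* passed with adjusted p between 0.00081 and 0.0071. *IFIT1* did not pass (F 1.17, adjusted p 0.287), with sub-region means from 51.5 to 64.1 CPM. Without animal 2 only 4 of the 8 genes passed.

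The animals differed in these genes as well as the regions. Sums of squares of log2(CPM + 1) over all libraries were split between sub-region, animal and the rest, as a description with no test. For *IFIT1* the animal took 34.7% and the sub-region 43%, and for *MX1* they took 23.8% and 65.2%. The median gene of the table had 9.90% and 59.8%, and the animal's share for *IFIT1* was above that of 93.6% of genes. *IFI6* and *MX2* had lower animal shares than the median gene, of 5.25% and 6.47%. *IFI44*, at 8.90%, and *IFIT3*, at 11.0%, were near it, while *OAS2* had 17.5% and *IFI27* 18.4%. Single animals decided some of these shares. Without animal 7 the share was 3.72% for *IFIT3* and 5.07% for *IFI44*, and without animal 4 it was 3.31% for *MX2*. In the cortical libraries alone, where regions are more alike, the animal's share rose to 77.6% for *IFIT1* and 65.1% for *MX1*, against 26.7% for the median gene. These shares were above those of 98.9% and 97.0% of genes. The cortical share was above that of 91.8% of genes for *IFIT3*, 81.9% for *IFI44* and 81.8% for *OAS2*. For *IFI27*, *MX2* and *IFI6* the figures were 76.7%, 67.6% and 30.9%.

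*IFIT1* sorted the animals in nearly every cortical sub-region. Animals 3 and 8 held the highest level in 30 of 31 cortical sub-regions, and animals 2, 6 and 7 the lowest in 31 of 31. The cortical libraries of animals 3 and 8 ran from 61.1 to 117 CPM, and those of animals 2, 6 and 7 from 26.3 to 59.9 CPM, with no overlap. These animals were picked after their values were seen, so no test was made of them. Such counts of sub-regions, here and below, were not made for all genes. The paper's t-SNE over the whole transcriptome grouped cortical samples by animal. Both sets hold young and mid-aged animals, and animals 3 and 8 are both male, as are 2 and 7. Summed over the brain, *IFIT1* ran from 37.7 CPM in animal 2 over a median of 59.8 to 74.6 CPM in animals 3 and 8.

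*MX1* sorted the animals differently. Animals 7 and 8 held its lowest level in 31 of 31 cortical sub-regions, and animals 6 and 11 its highest in 28. Animal 8 was therefore among the highest for *IFIT1* and among the lowest for *MX1*, and animal 6 the reverse. For *MX1*, animals 7 and 8 are the young males (4 and 3.8 years) and animals 6 and 11 the mid-aged females (10 and 9.8 years). Animal, age class and sex cannot be told apart in these sets, which were also picked after their values were seen. Over the whole brain *MX1* ran from 18.8 CPM in animal 7 over a median of 33 to 49.1 CPM in animal 6, a ratio of 2.61. The same ratio was 1.42 for *IFI6*, from 75.3 to 107 CPM, and between 1.73 and 2.02 for the other 6 genes.

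Summed microglia markers over the brain ran from 94.8 CPM in animal 3 to 157 CPM in animal 6, and were 99.9 CPM in animal 7 and 112 CPM in animal 8. Summed endothelial markers were highest in animals 11 (167 CPM) and 6 (154 CPM) and lowest in animal 7 (111 CPM). Summed leukocyte markers ran from 7.62 to 12 CPM. Their part in the differences between animals was not tested. Animal 7 also held the lowest *IFIT3* level in 24 of 31 cortical sub-regions and the lowest *IFI44* level in 21, animal 4 the lowest *MX2* level in 21, and animal 10 the highest *OAS2* level in 18.

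**Figure D3:**
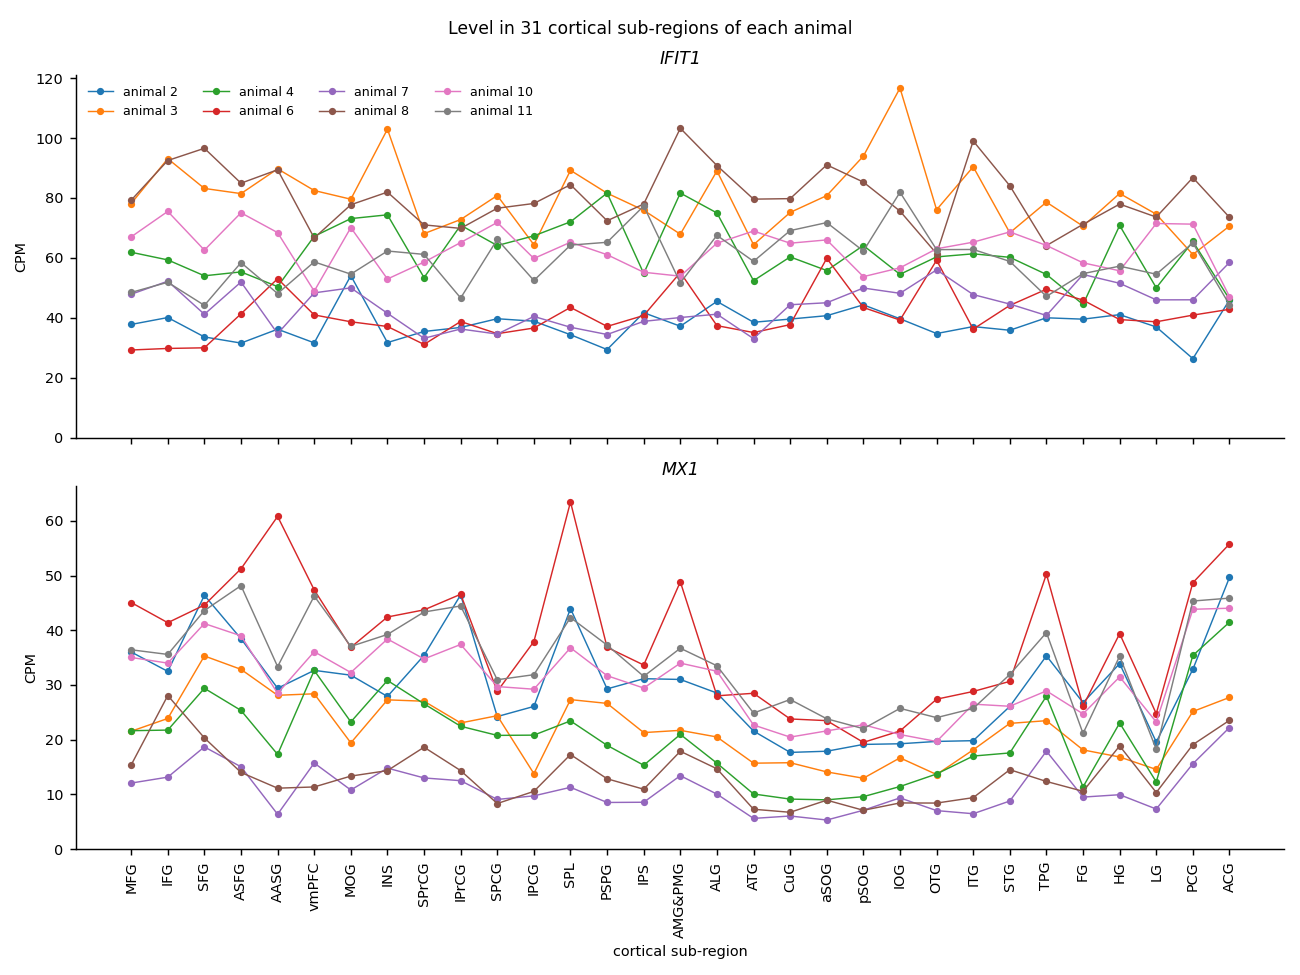
CPM of *IFIT1* (top) and *MX1* (bottom) in 31 cortical sub-regions, 1 line for each of 8 animals. In the upper panel animals 3 and 8 lie above animals 2, 6 and 7 throughout (61.1 to 117 against 26.3 to 59.9 CPM), and in the lower panel animals 7 and 8 lie lowest while the level of all animals falls toward the occipital sub-regions.

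Which genes ran most like each member was described by Pearson's r of log2(CPM + 1) over 12121 other genes. The first measure used all libraries after the mean of each sub-region was taken away, so the points share animals, dissections and library preparation, and r is given as a description. *MX1* and *IFIT3* were each other's nearest gene (r = 0.667). *MX1* was followed by *MAMU-DRA* (0.659), an MHC class II gene, and *IFIT3* by the interferon-stimulated genes *SAMD9L* (0.596) and *HERC6* (0.594). *MX2* was nearest to *CD74* (0.562), the MHC class II invariant chain, *CD4* (0.542) and *SAMD9L* (0.542).

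*IFIT1* kept other company. Its nearest genes were *PPID* (r = 0.708), *COMMD9* (0.693) and *CHORDC1* (0.691), the first a cyclophilin that works with the chaperone HSP90. Its r with *MX1* was -0.10 and with *OAS2* -0.07, and it reached 0.337 with *IFIT3*. *IFI6* was nearest to *TMEM147* (0.662), *MRPS34* (0.653) and *RABAC1* (0.643). *IFI44* was nearest to *HHEX* (0.538), *IL7R* (0.531) and the RNA sensor gene *DHX58* (0.519). *OAS2* was nearest to *MPEG1* (0.591), a gene of phagocytes, *CTSO* (0.584) and *ABCB4* (0.573), and *IFI27* to *RPS4X* (0.621), *C5AR1* (0.612) and *RPL13* (0.598).

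Over the 51 sub-region means, which share the 8 animals, the company was different. *IFI44L*, the neighbour and relative of *IFI44*, was the nearest gene to *IFIT3* (r = 0.931), *IFI44* (0.942) and *OAS2* (0.950). *MX2* ran closest to *C1H1orf162* (0.972), the lysozyme gene *LYZ* (0.965) and *CD74* (0.960). *IFI27* was closest to *TM4SF18* (0.932) and next to *IFI44* (0.920), and *MX1* to *SMAD2* (0.837) and *SDK2* (0.833) ahead of *IFIT3* (0.825). *IFI6* was closest to *C7H15orf39* (0.791), and *IFIT1* to *BTN3A3* (0.824) and *QPCT* (0.822).

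Other genes of the pathway were read from fixed lists. Of the interferon genes listed, *IFNB1*, *IFNL1* and *IFNL3* had rows, and they were too low for the region test. No read of them was counted in any OB, GP, CC, SN or VTA library, and their summed level was 0.015 to 0.058 CPM in the cortex and highest in PON at 0.113 to 1.67 CPM. Of 4 receptor genes tested, the type III receptor gene *IFNLR1* alone was higher in OB (log2FC 2.12, SE 0.31), and its highest mean was in PIT (9.60 CPM against 0.321 CPM in the cortex, log2FC 5.02). At these levels *IFNLR1* rests on few reads outside PIT.

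The shares of all genes higher than the cortex were 12.5% in OB, 15.8% in MO and 10.8% in CB. Of 11 JAK-STAT and IRF genes, 4 were higher in OB, namely *IRF7* (log2FC 1.61), the master regulator of interferon production, *IRF9* (1.38), *IRF1* (1.20) and *IRF8* (1.19). Of 10 nucleic acid sensing genes, 4 were higher in OB, namely *STING1* (3.27), the adaptor of cytosolic DNA sensing, *ZBP1* (2.46), *TLR3* (1.34) and *CGAS* (1.09). Of 5 negative regulators, 2 were higher in OB, *USP18* (2.89), which removes ISG15 from proteins and damps the receptor, and *SOCS1* (1.53). In MO the corresponding counts were 4 of 11, 5 of 10 and 2 of 5. In CB 1 of 11 and 1 of 10 were higher, near the share of all genes, and 2 of 5 regulators, while 1 sensing gene and 1 regulator were lower.

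Of 35 further interferon-stimulated genes with a row, out of 47 listed, 22 were higher in OB and 1 lower. The largest were *DDX60* (log2FC 3.87, SE 0.24), *BST2* (3.44, SE 0.18), which encodes the virus tether tetherin, *IFI44L* (3.30, SE 0.23) and the chemokine gene *CXCL10* (3.13, SE 0.45). Their median log2FC in OB was 1.42, below the 2.35 of the 8 genes followed here. The counts were 24 higher and 1 lower in GP, 21 and 1 in MO, 21 and 2 in PIT, 20 and 4 in CC, 19 and 1 in SN, and 16 and 1 in VTA. The counts were smaller elsewhere, at 8 and 1 in THA, 7 and 1 in PON, 6 and 1 in HIP, 5 and 1 in HTHA, 3 and 1 in PA, 2 and 1 in AMY, and 1 and 2 in STR. Of all genes, 9.81% were higher in THA, 6.05% in HIP, 11.0% in HTHA, 5.51% in PA, 5.03% in AMY and 8.73% in STR. The higher counts in HTHA and AMY were thus near the share of all genes, and that in STR was under it. In PON, where 5 of the 8 genes followed here were higher, the further genes thus stood at 7 of 35 beside 11.6% of all genes. In CB, 1 was higher and 4 were lower, while 10.8% of all genes were higher and 14.9% lower. The 4 lower genes were *OASL* (-5.00), *CMPK2* (-2.40), *HERC6* (-2.15) and *RSAD2* (-1.69), so lower calls were no more frequent than over all genes.

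The CA1 library of animal 6 stood out for these genes and was noticed after the values were seen, so its values are a description of 1 library. CA1 is a field of the hippocampus. *MX1* was at 167 CPM there and at 25.8 to 42.7 CPM in CA1 of the other 7 animals. *OAS2* was at 19.7 CPM against 1.40 to 4.05 CPM, or 8.93 times the others' median. *MX2* was at 14.5 CPM against 1.49 to 3.84 CPM. The excess was smaller for *IFIT3*, at 77.4 CPM against 18.1 to 26.7 CPM, and for *IFIT1*, at 138 CPM against 36.6 to 76.1 CPM.

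The remaining genes were high in it as well. *IFI44* was at 17.6 CPM against 2.79 to 6.66 CPM, *IFI27* at 13.1 CPM against 3.59 to 6.95 CPM, and *IFI6* at 234 CPM against 83.5 to 183 CPM. All 8 genes were thus above all 7 other animals. On the log2(CPM + 1) scale, 7 of 8 were more than 2-fold above the others' median, which held for 156 of 17121 genes, or 0.911%. Of the 35 further interferon-stimulated genes 13 were, *CXCL10* among them at 6.77 CPM against 0 to 0.525 CPM, and so were the sensor gene *RIGI* at 29.7 CPM against 6.58 to 11.9 CPM and *IRF7* at 4.82 CPM against 0.200 to 0.904 CPM.

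Summed microglia markers in the same CA1 library were 216 CPM against 106 to 147 CPM in the other animals, with 1 of 5 (*C1QC*) more than 2-fold higher. Summed endothelial markers, at 119 CPM, were just above the others' 84.6 to 117 CPM, with 1 of 8 more than 2-fold higher. Summed astrocyte markers, at 6235 CPM, were just above their 4455 to 6212 CPM. Summed neuron markers, at 9286 CPM, lay within the others' 9065 to 12028 CPM, as did summed leukocyte markers, at 11.5 CPM within 7.24 to 18.7 CPM. The part of these cells was not tested. Summing only the dentate gyrus and CA3 of animal 6 lowered its HIP level of *MX1* from 73.2 to 32.7 CPM, within the 15.7 to 34.4 CPM of the same 2 sub-regions in the other animals, and that of *OAS2* from 8.30 to 3.40 CPM, within their 1.23 to 4.16 CPM. *IFI44*, at 5.29 CPM, and *IFI27*, at 7.14 CPM, were above the other animals' highest levels in those sub-regions, 4.68 and 6.02 CPM. Among all libraries, the median fold of the 8 genes over the other animals' median was highest in this CA1 library, at 3.53, followed by SPL of animal 6 at 2.18, MO of animal 6 at 2.02 and the anterior arcuate sulcus gyrus of animal 6 at 1.82. At the low end were the dentate gyrus of animal 7 at 0.451, the cerebellar cortex of animal 7 at 0.454 and OB of animal 3 at 0.456. The SPL and MO libraries of animal 6 and the OB library of animal 3 stood apart over all genes as well. Of 17121 genes, 414 were above 2-fold and 1224 lower by as much in SPL, 1272 and 1815 in MO, and 312 and 1315 in OB.

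**Figure D4:**
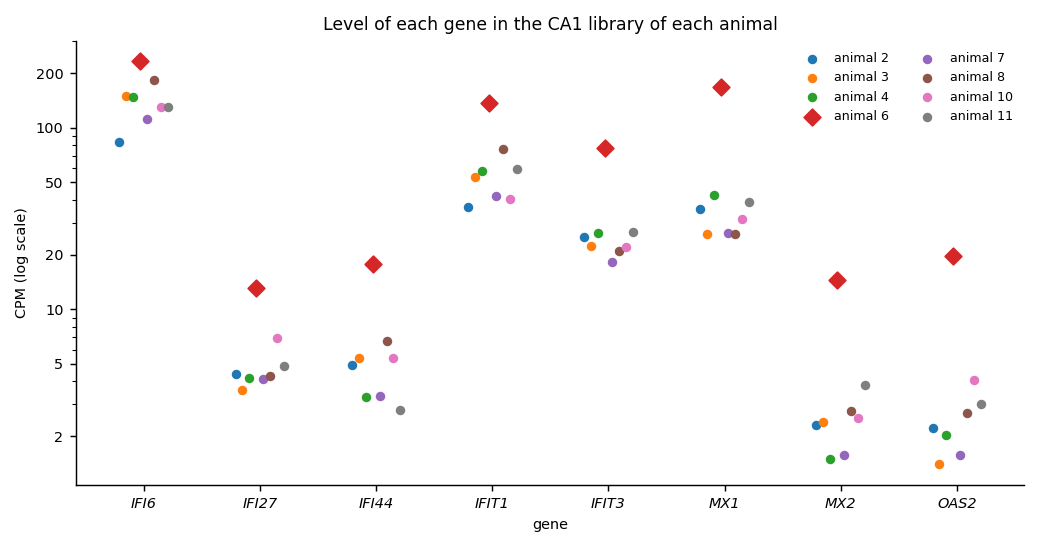
CPM of the 8 genes (log axis) in the CA1 library of each animal, 1 point per animal, animal 6 as a diamond. Animal 6 is the highest for every gene, from 13.1 CPM for *IFI27* to 234 CPM for *IFI6*, and lies farthest above the rest for *OAS2*, at 19.7 CPM against at most 4.05 CPM.

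Age and sex were compared with 4 animals against 4 in each region group (edgeR's quasi-likelihood test, adjusted p below 0.1 and more than 2-fold, with the other factor as covariate). For age, 0 of the pairs of a gene and a region group (8 genes in 16 groups) were called by edgeR and 0 by DESeq2, against 0.0164% of all gene and group pairs with edgeR. At an unadjusted p under 0.05 there were 18, or 14.1%, against 5.73% of all pairs, and these pairs share the same 8 animals. *MX1* had brain sums of 27.9 to 49.1 CPM in mid-aged and 18.8 to 38.4 CPM in young animals (log2FC 0.54, SE 0.14, adjusted p 0.835 with edgeR and 0.065 with DESeq2), under the fold limit. In CC *MX1* was at 47.3 to 76.2 CPM in mid-aged and 22 to 38.4 CPM in young animals, which did not overlap, but the adjusted p was 0.649 with edgeR (log2FC 0.85, SE 0.18). In PIT the direction was the opposite, at 18 to 32.5 CPM in mid-aged and 33.2 to 44.8 CPM in young animals, again without overlap (log2FC -0.61, SE 0.21, adjusted p 0.525). CC and PIT were picked out of the 16 groups. Some pairs part 4 animals from 4 by chance, and how many of all pairs do so was not counted. In the brain sums 0% of genes were called for age.

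For sex, 1 of these pairs was called, against 0.105% of all pairs, and this was *IFI6* in OB. The 4 females had 449, 470, 589 and 601 CPM and the 4 males 192, 258, 267 and 309 CPM. The sexes did not overlap, with means of 527 ± 79.0 and 256 ± 48.5 CPM (SD, n = 4), a log2FC of 1.06 (SE 0.14) and an adjusted p of 0.0636 with edgeR. The call was close to both limits in this fit. It was also made by DESeq2 (log2FC 1.05, adjusted p 2.7e-08) and by edgeR under the study's filter on low counts (log2FC 1.06, adjusted p 0.0088). Both were still near the fold limit. At an unadjusted p under 0.05 there were 20 pairs, or 15.6%, against 3.54% of all pairs. Without animal 2 the *IFI6* call in OB was kept by edgeR (log2FC 1.18). Without any one of the other 7 animals it was lost, at log2FC from 0.97 to 1.10 and adjusted p from 0.0577 to 0.331 with edgeR.

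The same gene leaned the same way in MO, at 194 to 259 CPM in females and 116 to 145 CPM in males, without overlap (log2FC 0.83, SE 0.17), but it was not called (adjusted p 0.504 with edgeR). MO was picked out of the region groups, and how often the sexes part over all genes was not counted. Without animal 6 its log2FC was 0.91 and its adjusted p 0.258. DESeq2 gave it an adjusted p of 0.0044, with a log2FC of 0.82 that missed the fold limit. In HTHA the estimate was negative, with females at 82.1 to 141 CPM and males at 125 to 181 CPM, and it was not called (log2FC -0.57, SE 0.21). Summed microglia markers in OB were 138 to 184 CPM in females and 93.4 to 139 CPM in males, and their part in the *IFI6* difference was not tested.

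Over the brain sums 0 of 8 genes were called for sex by edgeR and 0 by DESeq2, against 0.108% of all genes with edgeR. At an unadjusted p under 0.05, which 2.40% of all genes met, there were 2, *MX1* with a female minus male log2FC of 0.60 (SE 0.14) and *IFI6* with 0.22 (SE 0.09), at adjusted p of 0.902 and 1.00. With DESeq2 the adjusted p of *MX1* was 0.045, but its log2FC of 0.60 was under the fold limit. Of the estimates for 8 genes in 16 groups, 97 were positive, with a median of 0.19 against 0.00 over all pairs. These estimates share 8 animals and are not independent. In edgeR's interaction test of age and sex on the brain sums, with 2 animals in each class, 0 of 8 genes passed and 0 had an unadjusted p under 0.05. The estimates ran from -0.51 (*IFI44*) to 0.65 (*MX2*), and none of them could be told from 0 in this small design.

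**Figure D5:**
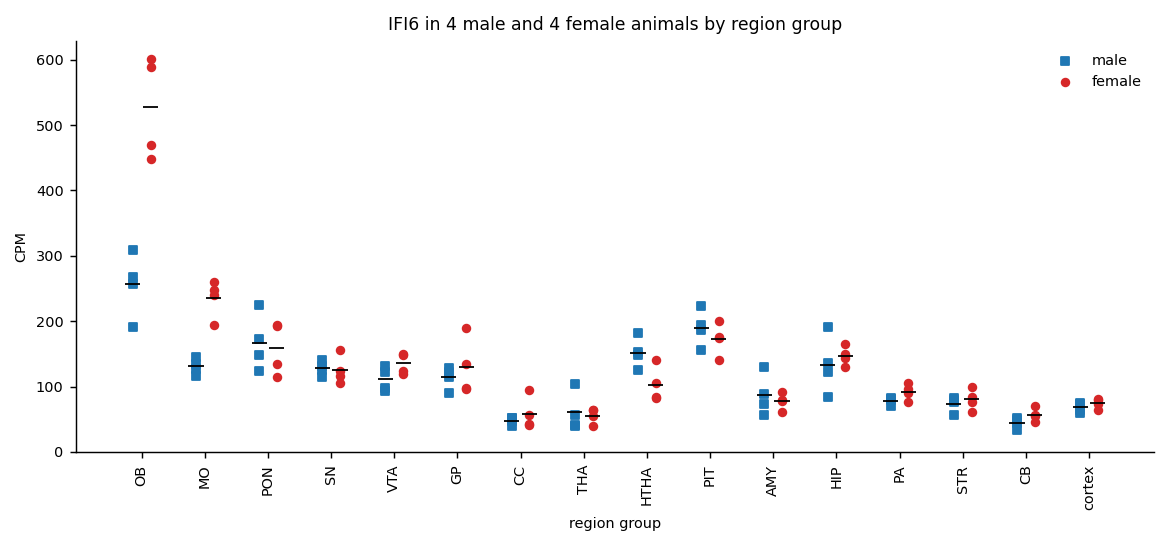
CPM of *IFI6* in 4 male (squares) and 4 female (circles) animals in each of 16 region groups, 1 point per animal and a bar at the mean of each sex. The sexes are apart in OB (192 to 309 against 449 to 601 CPM) and in MO (116 to 145 against 194 to 259 CPM).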

How the data were processed

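RNA-seq libraries of 51 sub-regions from 8 macaques were used. 8 midbrain samples without values and 33 ATAC-seq samples were not used. The authors trimmed reads of samples with low quality with Trim Galore 0.4.4, mapped all reads with HISAT2 2.0.5 to Mmul 8.0.1 and counted them with HTSeq 0.6.1, per the submitters' processing notes and the study's methods. The deposited values are raw read counts per gene. The library kit keeps strand, but which strand and overlap options HTSeq ran with is not given in the sources used here, so reads shared between close relatives or overlapping genes may have been dropped or split.

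Symbols came from a table of Ensembl identifiers (17572 genes named). Counts were summed per animal and region group, filtered with filterByExpr, scaled with TMM and tested with the quasi-likelihood test of edgeR 4.0.16 in R 4.3.3 (trended dispersion), with the animal as a block for regions and with sex or age as covariate otherwise. SE is the log2 fold change divided by the square root of F. The pseudocount was 1 CPM where log2(CPM + 1) is named. Alternatives were DESeq2 1.42.0 size factors and tests, a count above 1 in at least 3 samples as filter, no block, no covariate, a pseudocount of 0.1, cortical samples alone and each animal left out. The fits were tested on simulated counts. Total counts per library set the precision.

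The block rests on the animal identity in the labels. Deviations of the sums from their group means correlated within an animal at a mean r of 0.328 to 0.487, against -0.079 to -0.038 between animals. Because an animal's libraries were not replicates of each other, counts were summed per animal. In the region group fit, edgeR estimates the spread of a gene over all groups together. SE and p of that fit therefore do not measure the spread of the 8 animals in the group named. The genes, the gene lists and the tests were chosen with earlier results of these data known. All 9 members were named by rule, with the 3 nearest genes per member and measure and up to 4 called genes per list and comparison.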

Additional observations from a re-analysis of the deposited data

Results flagged for a closer look

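By Dixon's rule, at its 95% level, the highest of 8 animals lay far from the others in 15 sets of a gene and a region group, of the 8 genes in 16 groups examined, 10 of them through animal 6. Chance flags about 1 in 20 sets where values are normally distributed. The rule was applied to CPM without a log scale, and its chance rate there was not checked. Sets of the same libraries are not independent.

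*MX1* was at 73.2 CPM in HIP and 199 CPM in MO of animal 6, and *OAS2* at 8.30 CPM in HIP and 23.7 CPM in MO of the same animal. *IFIT3* in HIP of animal 6 was at 34.8 CPM and *IFI44* at 9.04 CPM. In CC of animal 6, *IFI6* was at 94.1 CPM and *IFI27* at 14.1 CPM. *IFI6* in GP of animal 6 was at 190 CPM and *IFI27* in its PON at 16.7 CPM. The other 5 were *IFI6* in THA of animal 8 at 103 CPM, *IFIT1* in PIT of animal 11 at 60.2 CPM, *IFIT3* in VTA of animal 11 at 65.2 CPM, and *OAS2* of animal 10 at 6.93 CPM in PA and 10.2 CPM in PON.

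The 8 sets of CA1 were examined only because the library of animal 6 had been seen to be high, so that the rule restates that observation. It was met by 7 of the 8, which were *MX1* at 167 CPM, *IFIT1* at 138 CPM, *IFIT3* at 77.4 CPM, *OAS2* at 19.7 CPM, *IFI44* at 17.6 CPM, *MX2* at 14.5 CPM and *IFI27* at 13.1 CPM. The HIP values of animal 6 above include this library. The brain sums met the rule for 0 of 8 genes.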

How the results depend on the processing

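The 55 calls of a gene against the cortex were refitted under 11 alternatives, which gave 605 values, of which 597 stayed called in the same direction and 8 fell under the fold limit. These 8 were *IFIT3* in HTHA, *OAS2* in PON and *IFIT1* in THA, at log2FC of 0.94 to 0.99. The alternatives also made 17 calls on 5 pairs that were not called before, *MX2* and *IFI6* in HIP, *MX1* in PA and STR and *IFIT3* in THA, each near the fold limit. Without the animal block, and so without the pairing of sums by animal, 54 pairs of a gene and a group were higher than the cortex and 3 lower, but only 2 of the 8 genes differed among cortical sub-regions, against 7 with the block. Leaving out 1 animal gave 4 to 7 such genes, 4 without animal 2, and 1 to 3 genes higher in one group than in each other (2 with all animals, 1 without animal 4 or animal 10). With the study's detection filter 3127 genes of the table were higher in one group than in each other, against 1937.

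The counts over all genes for age and sex moved between settings. With so few pairs called, the member counts of 0 to 1 had little room to move and are not set against them. For age, 40 pairs of a gene and a group were called, 802 with DESeq2, 682 with the detection filter, 13 without the covariate, and 3 to 927 with 1 animal left out, 927 without animal 7. For sex, 256 pairs were called, 999 with DESeq2, 556 with the detection filter and 229 to 2235 with 1 animal left out, 2235 without animal 7. In the brain sums DESeq2 called 75 genes for age against 0 by edgeR, and 43 for sex against 23. Of the members, 0 were called for age under each alternative, and for sex 0 to 1 pair with 1 animal left out. The cause of these shifts was not tested. The median share of the animal over the 8 genes was 14.3%, and 41.8% in the cortical samples alone. With DESeq2 size factors the group of the highest mean level was the same for 8 of 8 genes and that of the lowest for 7. The highest fitted level moved for some genes. For *OAS2* it was in GP, and in OB with DESeq2 size factors. For *MX2* it was in MO, and in GP without animal 4, 6 or 11. The HIP sum of animal 6 without its CA1 library was added after the data were seen. Low counts limit *MX2*, *OAS2*, *IFI27* and *IFI44* in single cortical libraries.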
